A study of Homo sapiens with 15 samples.

Results

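The D-loop body described here is the stretch of the mitochondrial control region from position 16201 to the end of the reference at 16571 and on from 1 to 190, numbered as in the hg19 mitochondrial genome of the deposited files. It was chosen by position alone and lies between the 3′ end of 7S DNA and the heavy-strand origin. It holds 561 of the 16571 positions and, cut into 50 bp bins on both strands, 24 of the 666 bins of the genome. The samples came from K562, an established human chronic myeloid leukemia cell line of WT genotype. SSiNGLe-P1 maps free 3′-OH ends of DNA at single-base resolution. Nuclease P1 preferentially cuts single-stranded nucleic acid and leaves such ends, and was added so that single-stranded DNA appears as new termini. Formaldehyde-crosslinked nuclei, with mitochondria that were purified along with them, received no P1 or 0.01, 0.1, 1 or 10 U of it, with 3 biological replicates each, and every other step was shared by the 15 samples. The comparisons ask on which strand, where and at which amount of P1 the body gains termini.

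In the D-loop of mammalian mitochondria a short heavy-strand DNA, 7S DNA, is paired with the light (L) strand, and the parental heavy (H) strand is displaced as a single strand. 7S DNA begins near the heavy-strand origin and stops near the termination-associated sequence, and it is remade and degraded rapidly in many cell types. The H strand of the body is thus held by the parental strand and by 7S DNA, and termini of these H strands cannot be told apart by position and strand. The control region (NCR) carries the promoters and the heavy-strand origin and no protein-coding gene. None of the 37 annotated mitochondrial genes overlapped the body, and the nearest ones were the tRNA genes MT-TP before it and MT-TF after it.

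Mitochondrial depth ran from 29622 to 692989 termini per sample (median 382515), and those of 10 U held the fewest, from 29622 to 57127. The body itself held between 930 and 33303 H-strand termini and between 775 and 3498 L-strand termini per sample. The untreated library of replicate 1 was shallow, with 112179 mitochondrial termini against 468797 and 486276 in the other untreated libraries. Levels are given as relative density, the termini per base on a strand of the body divided by the mean termini per base and strand outside the NCR (positions 579 to 16024), so that a value of 1 is the average of the coding part. This total was used because the 7S DNA 3′ end dominates the mitochondrial total and changes with P1. Absolute amounts of termini per genome were not measured, and counts from PCR-amplified reads without molecular identifiers are not counts of molecules.

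On the H strand the body was already denser in termini than the coding part without P1 and gained up to 1 U. Its relative density was 1.37, 1.58 and 1.80 in the untreated replicates 1 to 3, and 1.44, 1.99 and 3.04 after 0.01 U. It was 4.94, 5.43 and 7.37 after 0.1 U and 6.97, 8.09 and 10.4 after 1 U. After 10 U it was 4.34, 3.49 and 4.80. Every sample of 0.1, 1 and 10 U lay above every untreated sample, while the values of 0.01 U overlapped the untreated ones and those of 0.1 and 1 U overlapped each other. Within replicate numbers the ratio to untreated was 1.31 after 0.01 U (1.05 to 1.69 over the 3 replicates), 3.70 after 0.1 U (3.43 to 4.09), 5.31 after 1 U (5.08 to 5.78) and 2.65 after 10 U (2.20 to 3.17). From 0.1 to 1 U the body gained by a factor of 1.44 in 3 of 3 replicates, and from 1 to 10 U its density changed by a factor of 0.499 and was higher in 0 of 3. Differences among the 5 amounts had p = 6.94e-05 in an exact permutation test that exchanged values within replicate numbers, the smallest p this test allows, and 0.000278 after Benjamini-Hochberg adjustment over 8 such tests. Outside the NCR the H strand also rose, by factors of 1.42 after 0.1 U and 1.66 after 1 U on the same scale. Because this strand is itself part of the denominator, these factors have an upper limit. How the body's factors compare with them does not depend on the denominator, which both share.

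**Figure D1:**
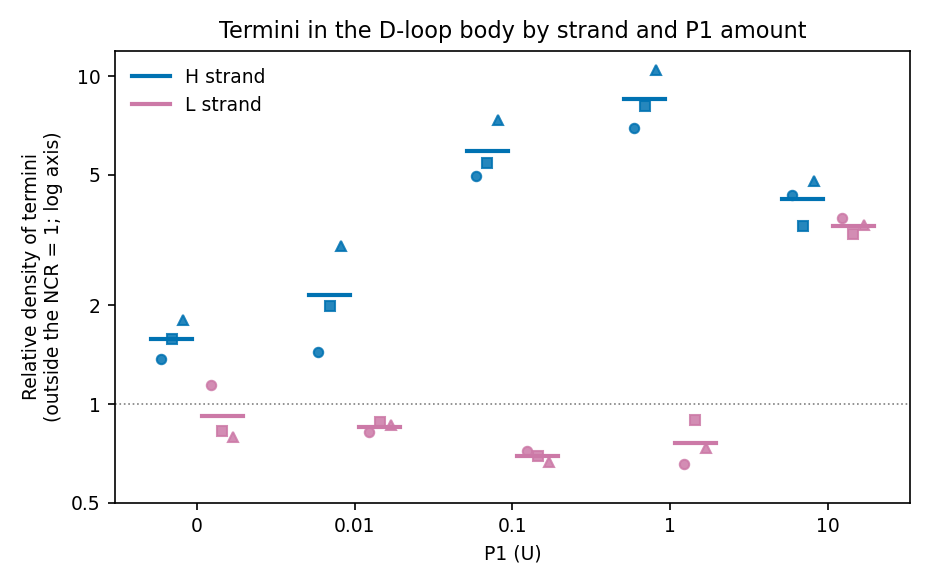
Relative density of termini in the D-loop body (y axis, log scale, 1 = mean per base and strand outside the NCR) against P1 amount in U for the H and L strands. Points are the 3 replicates (circle 1, square 2, triangle 3) and bars their means. The H strand peaks after 1 U (6.97 to 10.4), whereas the L strand stays between 0.656 and 1.14 up to 1 U and reaches 3.30 to 3.68 after 10 U.

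The gain on the H strand covered the whole body after 0.1 and 1 U. In edgeR's quasi-likelihood test over the 666 bins of the genome, with adjusted p under 0.05 as the call, 12 of the 12 H-strand bins of the body rose after 0.1 U and 12 of 12 after 1 U. Among the 333 H-strand bins of the genome 67.0% were called higher and 12.9% lower after 0.1 U, and 70.3% higher and 16.2% lower after 1 U, so that a rise by itself was common on this strand. As a description of size, the median log2 fold of its H-strand bins was 1.91 after 0.1 U and 2.29 after 1 U, against 0.57 and 0.75 over the H-strand bins of the genome. Counted as unique sites per bin, 0% of the body's H-strand bins were called higher after 0.1 U and 16.7% after 1 U. Of the body's H-strand positions 46.5 to 78.6% were used without P1, 92.5 to 97.0% after 0.1 U and 96.3 to 97.1% after 1 U. The part of this upper limit in the unique-site calls was not tested. The genome's share of bins called as unique sites is not given here. After 0.01 U edgeR called 0 of the body's 24 bins, and 0% of the bins of either strand in the genome in either direction. DESeq2 called 0 of the 12 H-strand bins of the body higher after 0.01 U as well. As a description of size, the median log2 fold after 0.01 U was 0.41 over these bins and 0.07 over the H-strand bins of the genome. After 10 U 11 of the 12 H-strand bins were higher than untreated in edgeR and none was lower, against 33.9% higher and 19.5% lower in the genome.

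The largest H-strand gains after 1 U lay toward both ends of the body. Positions 16301 to 16350 held 54, 211 and 199 termini in the untreated replicates and 4175, 3895 and 4678 after 1 U, which is a relative density of 0.89, 0.85 and 0.84 against 11.6, 11.2 and 16.4. No treated value of 1 U came near an untreated one there, and the log2 fold was 3.92 ± 0.19 (SE; edgeR adjusted p = 1.03e-16). Next to it, positions 16251 to 16300 went from 1.74 ± 0.0870 to 17.7 ± 4.78 (SD, n = 3 each; log2 fold 3.33 ± 0.18, edgeR adjusted p = 7.04e-16). Toward the origin the bins 101 to 150 and 151 to 190 rose by log2 folds of 3.46 ± 0.23 and 3.61 ± 0.19 (SE; edgeR adjusted p = 1.43e-13 and 2.40e-16). The smallest gains were in the bins 51 to 100 (0.85 ± 0.17, edgeR adjusted p = 2.24e-05) and 16551 to 16571 (1.25 ± 0.23, edgeR adjusted p = 1.06e-05).

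**Figure D2:**
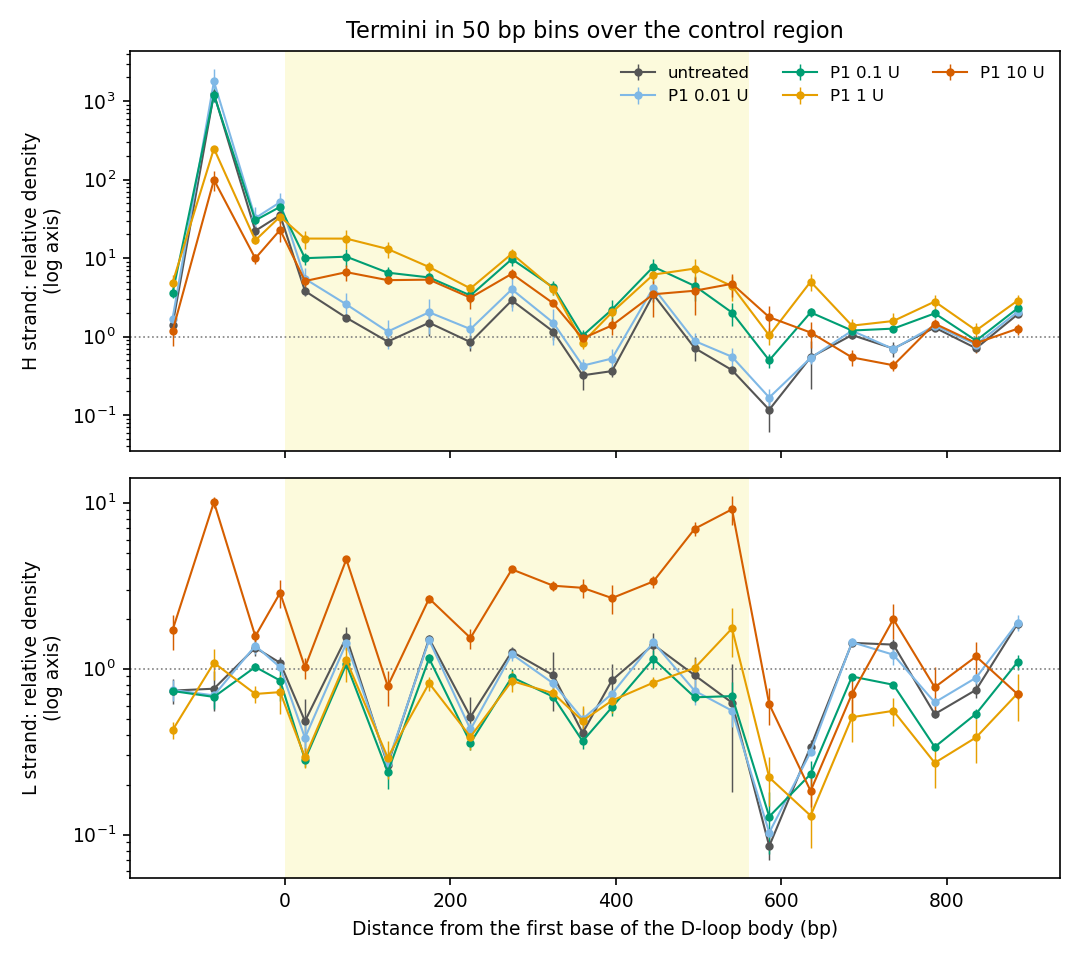
Relative density (log scale) of H-strand (top) and L-strand (bottom) termini in 50 bp bins against the distance from the first base of the D-loop body, mean and SD of 3 replicates per P1 amount. The shaded stretch is the body. On the H strand it lies beside the peak of the 7S DNA 3′ end (1241 without P1), and on the L strand the 10 U samples lie above the other amounts in every bin of the body.

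As levels, the H-strand termini of 1 U were weighted to the side of the 7S DNA 3′ end. The first 150 bases of the body, 26.7% of its length, held 36.3 ± 2.23% of its H-strand termini without P1, 38.0 ± 2.72% after 0.01 U and 40.7 ± 1.41% after 0.1 U (SD, n = 3 each). They held 50.7 ± 2.04% after 1 U and 36.0 ± 2.00% after 10 U. Each of the 1 U samples, from 48.4 to 52.4%, was above each sample of the other amounts. Within this stretch the relative density after 1 U was 17.7 ± 4.62 in positions 16201 to 16250 and 13.1 ± 2.89 in 16301 to 16350, and it was 7.69 ± 1.16 in the next bin. A local peak of 11.4 ± 1.64 stood at 16451 to 16500, and the lowest value was 0.841 ± 0.143 at 16551 to 16571 (SD, n = 3 each).

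From 1 to 10 U the H strand lost density unevenly along the body. In edgeR 9 of its 12 bins were lower after 10 U than after 1 U and none was higher, against 59.5% lower and 17.4% higher among the H-strand bins of the genome. The median log2 fold was -0.72 over the body's H-strand bins and -0.60 over those of the genome, so a loss was common on this strand. With all mitochondrial termini as the library size the count of lower bins was 6 of 12. Counted as unique sites the direction turned, with 5 of 12 bins higher and 0 lower (median log2 fold 0.48). In that count the 1 U samples were near their ceiling, with 96.3 to 97.1% of the body's H-strand positions used. The part of this ceiling in the turn was not tested. The counts under these other settings are given without the genome's shares, so they do not set the body apart from the strand. In the main setting the bins fell by different amounts. The drop was deepest in the first bin, which fell by 1.77 ± 0.18 on the log2 scale (SE; edgeR adjusted p = 4.91e-10), and the following bins fell by 1.41 and 1.27. At the origin end, positions 151 to 190, the relative density was 2.64, 4.88 and 5.65 after 1 U and 4.12, 3.53 and 6.47 after 10 U, which overlapped (log2 fold 0.11 ± 0.16, edgeR adjusted p = 0.537). In the bin 51 to 100, which held 3.45 ± 0.676 without P1 and 3.46 ± 1.67 after 10 U (SD, n = 3 each), the difference from untreated did not pass the test after 10 U (edgeR adjusted p = 0.812).

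**Figure D3:**
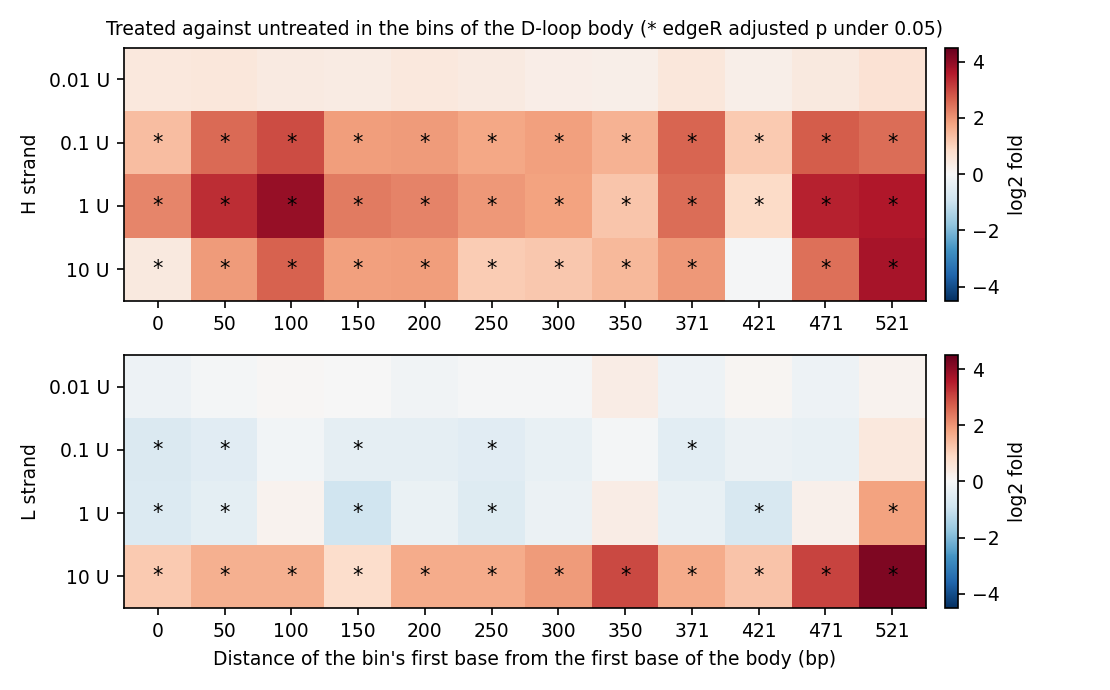
Log2 fold of termini, treated against untreated, in the 12 bins of the D-loop body on the H strand (top) and L strand (bottom), with one row per P1 amount and the distance of each bin's first base from the body's first base on the x axis. Stars mark edgeR adjusted p under 0.05. On the H strand every bin is starred after 0.1 and 1 U, and on the L strand every bin is starred and higher after 10 U.

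On the L strand the values stayed between 0.656 and 1.14 up to 1 U and rose after 10 U. The relative density in the body was 1.14, 0.828 and 0.794 in the untreated replicates and 0.819, 0.879 and 0.862 after 0.01 U. It was 0.717, 0.694 and 0.666 after 0.1 U and 0.656, 0.896 and 0.733 after 1 U, and then 3.68, 3.30 and 3.51 after 10 U. The samples of 10 U stood above the 12 others without overlap, whereas the untreated, 0.01 U and 1 U values overlapped. Whether the termini gained after 10 U came from single-stranded or double-stranded DNA was not tested. The ratio of 10 U to untreated was 3.85 (3.22 to 4.42, higher in 3 of 3 replicates), and that of 10 U to 1 U was 4.63 (3.69 to 5.61). Across the 5 amounts the exact permutation test returned p = 0.00806, and 0.00806 after adjustment over the 8 tests. Without replicate 2 it gave p = 0.0583 and without replicate 3 p = 0.125, where the exact test over 2 replicate numbers has a smallest p of 0.00833.

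In the bins, 12 of the 12 L-strand bins of the body rose after 10 U in edgeR and none fell, while 16.5% of the 333 L-strand bins of the genome rose and 47.4% fell. The body thus held 12 of the 55 L-strand bins that rose. The gain was largest next to the origin. Positions 151 to 190 held 55, 69 and 73 L-strand termini without P1 and 405, 397 and 275 after 10 U, although the libraries of 10 U were the shallowest, and the relative density there went from 1.14, 0.35 and 0.39 to 10.0, 7.04 and 10.3. Its log2 fold was 4.19 ± 0.29 (SE; edgeR adjusted p = 8.76e-14), and that of positions 101 to 150 was 3.03 ± 0.17 (edgeR adjusted p = 1.09e-15). The smallest gain of the L strand was 0.80 ± 0.15, in positions 16351 to 16400 (edgeR adjusted p = 2.71e-05). Against 1 U, 12 of 12 L-strand bins were higher after 10 U and none lower, with 73.0% higher and 0% lower in the genome, and the median log2 fold was 2.03 in the body and 0.93 over the strand.

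After 0.1 and 1 U the direction on the L strand depended on the scaling. Relative to the termini outside the NCR, 5 of 12 L-strand bins of the body were lower and none higher after 0.1 U, and 5 were lower and 1, positions 151 to 190, higher after 1 U. In the genome 93.7% of L-strand bins were lower and 0.300% higher after 0.1 U, and 97.0% lower and 0.901% higher after 1 U. With all mitochondrial termini as the library size 7 bins were higher and 0 lower after 1 U, with the size factors of DESeq2 6 were higher and 0 lower, and with TMM factors 4 were higher and 1 lower. Without replicate 1 3 were higher and 3 lower after 1 U. These counts are given without the genome's shares at the same settings, so they do not set the body apart from the strand. With all mitochondrial termini as the library size the median log2 fold over the L-strand bins of the genome after 1 U went from -1.39 to -0.49 and that over the H-strand bins from 0.75 to 1.66. The ratio of the body's L-strand density to that outside the NCR does not depend on this scaling. It was 1.12, 0.768 and 0.779 without P1, 1.26, 2.25 and 2.45 after 1 U and 4.46, 3.76 and 4.72 after 10 U. The body was thus denser in L-strand termini per base than the coding part at both of these amounts. The ratio to untreated was 2.18 after 1 U (1.13 to 3.14) and 4.91 after 10 U (4.0 to 6.06). This comparison was chosen after seeing the data, and its exact permutation test across the 5 amounts returned p = 0.000694, or 0.00139 after adjustment over 10 tests.

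The other segments of the NCR placed the L-strand gain. In the segment of the 7S DNA 3′ end (positions 16025 to 16200) the L-strand relative density also rose after 10 U, from 0.927 ± 0.0638 to 4.03 ± 0.201 (SD, n = 3 each). The rise was uneven there, with a log2 fold of 3.83 ± 0.18 in 16091 to 16140 and 0.20 ± 0.17 in 16141 to 16190 (SE; edgeR adjusted p = 4.07e-17 and 0.310). In the heavy-strand origin segment (191 to 578) it was 0.940 ± 0.00914 without P1 and 0.837 ± 0.0503 after 10 U. The L-strand density of the body over that of the origin segment was 1.20, 0.887 and 0.847 without P1 and 4.23, 3.83 and 4.51 after 10 U, a ratio of 4.32 (3.52 to 5.32). The exact permutation test of this measure across the 5 amounts, also chosen after seeing the data, gave p = 0.000694 and 0.00139 after adjustment over 10 tests.

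The H/L ratio of all termini in the body followed from these levels. It was 1.20, 1.91 and 2.27 without P1 and 1.76, 2.26 and 3.52 after 0.01 U. It rose to 6.89, 7.82 and 11.1 after 0.1 U and to 10.6, 9.03 and 14.2 after 1 U, and it was 1.18, 1.06 and 1.37 after 10 U. The samples of 0.1 and 1 U lay above those of the other amounts, while the 10 U and untreated values overlapped. The ratio to untreated was 4.86 after 0.1 U, 6.39 after 1 U (4.72 to 8.85, higher in 3 of 3 replicates) and 0.689 after 10 U (0.552 to 0.984, lower in 3 of 3). The exact permutation test gave p = 6.94e-05, the smallest it allows (adjusted over the 8 tests, 0.000278).

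**Figure D4:**
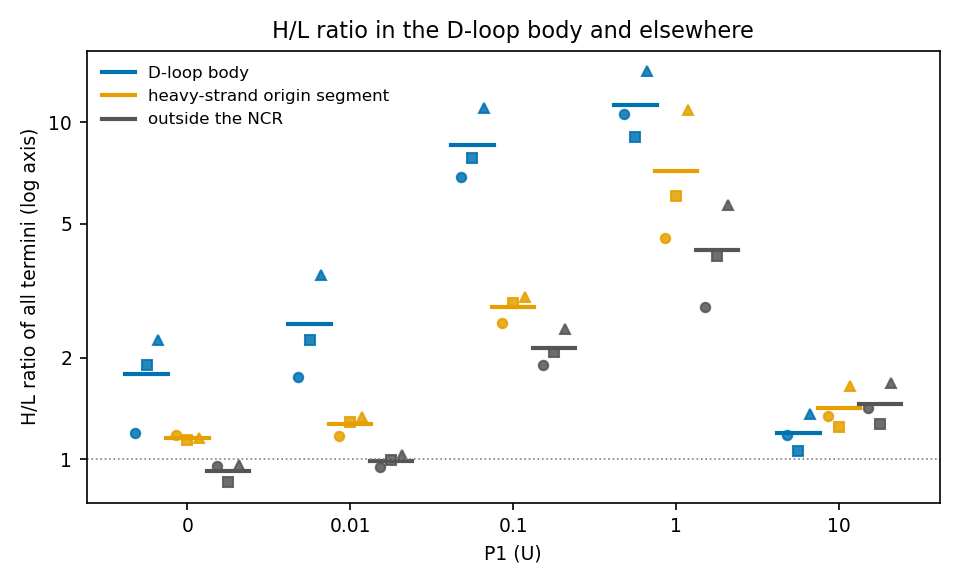
H/L ratio of all termini (log scale) against P1 amount in U, in the D-loop body, in the heavy-strand origin segment and outside the NCR. Points are the 3 replicates (circle 1, square 2, triangle 3) and bars their means. In each replicate the body has the highest ratio up to 1 U (9.03 to 14.2 after 1 U), and after 10 U it lies below the ratio outside the NCR of the same replicate.

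Outside the NCR the H/L ratio rose and fell too, so the body was set against it. The body's H/L ratio was 1.95 ± 0.603 times that outside the NCR without P1, 2.52 ± 0.808 times after 0.01 U, 3.96 ± 0.492 times after 0.1 U and 2.83 ± 0.807 times after 1 U (SD, n = 3 each). After 10 U it was 0.830, 0.827 and 0.810 times, below 1 in every replicate and below every sample of the other amounts. Across the 5 amounts the exact permutation test returned p = 0.00396 (adjusted over the 8 tests, 0.00492). The ratio of 1 U to untreated was 1.47 but went from 1.00 to 2.98 over the replicates, and without replicate 1 it was 1.03. The gain of the body's H/L ratio over that of the coding part after 1 U thus rested on replicate 1, whose untreated library was the shallow one. Without replicate 2 or 3 the ratio was 1.78 or 1.73, and the exact permutation test over the amounts missed 0.05 (p = 0.05 and 0.075). Counted as unique sites the ratio of 1 U to untreated was 0.755.

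Unique sites, the positions with at least 1 terminus, gave flatter H/L ratios, and few H-strand positions of the body stayed unused. After 1 U 540, 545 and 543 of the 561 H-strand positions held a terminus, against 370, 407 and 356 on the L strand. Without P1 261, 423 and 441 H-strand positions and 230, 348 and 351 L-strand positions were used, the lowest numbers in the shallow library. By unique sites the H/L ratio was 1.20 ± 0.0619 without P1, 1.32 ± 0.164 after 0.01 U, 1.52 ± 0.0833 after 0.1 U, 1.44 ± 0.0944 after 1 U and 1.10 ± 0.0338 after 10 U (SD, n = 3 each; exact permutation test across the 5 amounts, p = 0.00431, adjusted over the 8 tests 0.00492). Without replicate 2 this exact test gave p = 0.133. Every sample was also thinned, to 29622 mitochondrial termini or, in an alternative chosen after seeing the data, to 1705 termini in the body. In the same order the means of this H/L ratio were 1.40, 1.85, 3.44, 2.89 and 1.11 with 29622 mitochondrial termini, highest after 0.1 U. With 1705 body termini they were 1.31, 1.54, 2.99, 3.39 and 1.12, highest after 1 U. Over the 15 samples 558 of the 561 H-strand and 544 of the 561 L-strand positions held at least 1 terminus.

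The body also took a larger share of the mitochondrial termini after 0.1, 1 and 10 U than without P1. The total of this share is dominated by the 7S DNA 3′ end, so the share also moves with that segment. The H-strand relative density of that segment was 362 ± 31.3 without P1, 79.3 ± 2.81 after 1 U and 32.9 ± 8.79 after 10 U (SD, n = 3 each). Both strands together held 1.52, 1.43 and 1.41% of all mitochondrial termini without P1, where the 95% Wilson intervals were 1.45 to 1.59%, 1.40 to 1.46% and 1.38 to 1.44%. The share was 1.38, 1.44 and 1.28% after 0.01 U and 3.54, 3.10 and 4.83% after 0.1 U. It reached 8.57, 9.75 and 11.9% after 1 U and 10.6, 9.40 and 10.5% after 10 U, with overlap between these amounts. The ratio to untreated was 6.88 after 1 U and 6.99 after 10 U, each higher in 3 of 3 replicates (exact permutation test across the 5 amounts, p = 0.000833, adjusted over the 8 tests 0.00167). After 1 U most of the body's termini were on the H strand (28115, 31590 and 33303 against 2648, 3498 and 2347 on the L strand), and after 10 U the strands held similar numbers (2467, 2757 and 1790 against 2090, 2611 and 1310).

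After 1 and 10 U the H strand was higher than untreated in the body and lower in the neighbouring 7S DNA 3′ end segment as a whole. The bins of that segment differed after 1 U, with a log2 fold of -2.31 ± 0.36 in 16091 to 16140, -0.39 ± 0.18 in 16141 to 16190 and 1.78 ± 0.18 in 16041 to 16090 (SE). Positions 16191 to 16200, next to the body, did not pass the test (-0.06 ± 0.15, edgeR adjusted p = 0.711). The H-strand relative density of that segment was 338, 350 and 397 without P1, 334, 443 and 776 after 0.01 U, 311, 428 and 323 after 0.1 U, 77.3, 82.5 and 78.1 after 1 U and 31.1, 25.1 and 42.4 after 10 U. The values with 0.01 and 0.1 U overlapped the untreated ones, and from 1 to 10 U both segments fell, to 0.405 times in the 7S DNA 3′ end and 0.499 times in the body (geometric means, lower in 3 of 3 replicates each). The density of the body over that of the 7S DNA 3′ end was 0.00437 ± 0.000274 without P1, 0.00424 ± 0.000295 after 0.01 U, 0.0171 ± 0.00517 after 0.1 U, 0.107 ± 0.0229 after 1 U and 0.131 ± 0.0151 after 10 U (SD, n = 3 each). This was 24.2 times untreated after 1 U (21.7 to 29.4) and 29.8 times after 10 U (lowest replicate 25, highest 34.4), with p = 0.000486 in the exact permutation test across the 5 amounts (adjusted over the 8 tests, 0.0013). Across the heavy-strand origin segment as a whole the H strand rose less than in the body, although its bins 191 to 240 and 241 to 290 rose by a log2 fold of 3.44 ± 0.27 and 3.44 ± 0.24 after 1 U (SE; edgeR adjusted p = 3.11e-12 and 4.27e-13), against a median of 2.29 over the 12 body bins. Over the segment the body's H-strand density over that of the origin segment went from 1.22, 1.49 and 1.66 without P1 to 3.19, 3.24 and 3.19 after 1 U and 3.72, 3.24 and 3.72 after 10 U. The ratio to untreated was 2.22 after 1 U (1.92 to 2.61; exact permutation test across the 5 amounts, p = 0.00236, adjusted over the 8 tests 0.00378), and counted as unique sites it was 0.888. Without replicate 2 or 3 this exact test gave p = 0.05 in either case.

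The L strand dropped sharply at the end of the body next to the origin. In steps of 10 bp the L strand after 10 U held a relative density of 21.2 ± 3.69 in positions 181 to 190 and 0.388 ± 0.316 in 191 to 200 (SD, n = 3 each), where 2 to 5 termini were counted per sample. After 1 U these values were 3.87 ± 1.38 and 0.207 ± 0.159, and without P1 1.10 ± 0.693 and 0.104 ± 0.0224. The H strand after 10 U held 0.246 ± 0.0905 in positions 171 to 180 and 6.67 ± 3.41 in 181 to 190. It then held 0.844 ± 0.719 in 191 to 200 and 6.70 ± 2.16 in 221 to 230. The H strand thus also fell at that end, but returned to a similar level beyond it. Steps of the L strand varied inside the body after 10 U too, with 15.9 ± 1.09 in 141 to 150 and 3.72 ± 0.710 in 151 to 160. Beyond the end the L strand held 1.94 ± 0.412 in 221 to 230. Positions 191 to 240 were low on both strands already without P1 (0.117 ± 0.0568 on the H strand and 0.0853 ± 0.0146 on the L strand), and a part of the alignment in this low level was not tested. As a fold, the gain ran past the end of the body, since this next bin was also higher after 10 U by a log2 fold of 2.87 ± 0.30 on the L strand and 4.18 ± 0.29 on the H strand (SE; edgeR adjusted p = 2.01e-09 on the L strand). Further into the origin segment the L strand was mixed after 10 U. Positions 241 to 290 fell by 0.98 ± 0.31 on the log2 scale (edgeR adjusted p = 0.00907), and 291 to 340 and 491 to 540 fell by 1.08 and 1.45. The bins 341 to 390, 391 to 440 and 441 to 490 were higher, by 0.50 ± 0.16, 0.57 ± 0.23 and 0.67 ± 0.20 (edgeR adjusted p = 0.00934, 0.0355 and 0.00525).

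**Figure D5:**
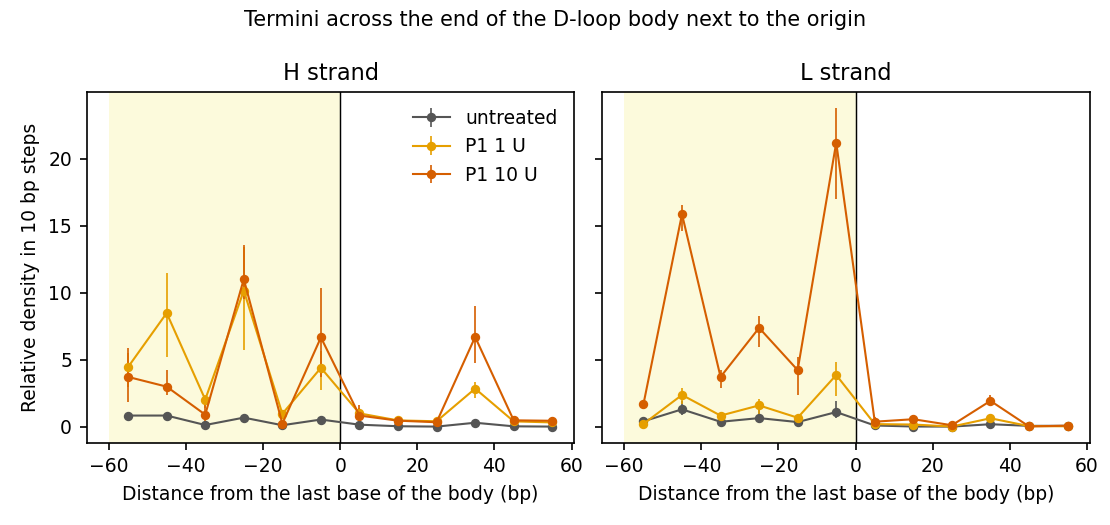
Relative density in 10 bp steps against the distance from the last base of the D-loop body (0, vertical line; body shaded) on the H strand (left) and L strand (right), for untreated, 1 U and 10 U samples. Points are means of 3 replicates and bars run from the lowest to the highest replicate. On the L strand the last step of the body reaches 21.2 after 10 U and the next step holds 0.388.

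Single positions show how the pattern changed with the H-strand gain. They were named by their share of the strand's termini in the body, so their levels are a description. Without P1 the leading H-strand position was 61, with 53, 256 and 342 termini or 6.24 ± 0.825% of the body's H-strand termini. Its share was 5.49 ± 1.27% after 0.01 U, 1.95 ± 0.272% after 0.1 U, 0.347 ± 0.0417% after 1 U and 0.374 ± 0.149% after 10 U (SD, n = 3 each). Its relative density was 56.0 ± 14.9 without P1, 66.0 ± 24.6 after 0.01 U and 64.7 ± 15 after 0.1 U, and then 16.3 ± 2.23 after 1 U, so up to 0.1 U its mean was not below untreated while its share was. Positions 16201 and 16457 came next without P1, with 2.54 ± 0.527% and 2.22 ± 0.273%, and after 1 U they ranked 125 and 27.

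After 1 U position 16327 led the H strand, with 1098, 1148 and 1304 termini or 3.82 ± 0.160% (SD, n = 3), where the untreated samples held between 12 and 18 termini. It led after 0.1 U and 10 U too, with 2.53 ± 0.184% and 3.10 ± 1.05%, and ranked 31 without P1. Positions 16215 and 16226 followed after 1 U with 2.72 ± 0.547% and 2.43 ± 0.359%. Termini were spread over many positions at every amount, and the 10 most used H-strand positions of each sample held together 24.0 ± 1.47% of the strand's termini in the body without P1 and 22.5 ± 0.659% after 1 U (SD, n = 3 each).

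On the L strand position 16367 led without P1, with 17, 79 and 89 termini or 3.29 ± 1.03%, followed by the neighbours 69 and 68. The relative density of position 16367 was 16.3 ± 2.43 without P1, 7.25 ± 2.12 after 1 U and 15.3 ± 6.33 after 10 U (SD, n = 3 each), although the L strand of the body as a whole was 3.85 times higher after 10 U than without P1. Positions 187, 186 and 185, at the origin end, led after 1 U. Position 187 held 0.579 ± 0.225% of the body's L-strand termini without P1, 3.17 ± 1.07% after 1 U and 3.85 ± 0.324% after 10 U, where it again ranked 1 with 54 to 103 termini per sample. Position 186 held 0.722 ± 0.510%, 2.76 ± 0.758% and 3.31 ± 1.02% at the same amounts (SD, n = 3 each).

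The position profile of the H strand was closest between the 0.1 and 1 U samples. Over the 561 positions, which are not independent replicates, Pearson's r of the log2 share of termini was 0.956 to 0.971 between the 1 U samples and 0.913 to 0.946 between 0.1 and 1 U. It was 0.685 to 0.748 between untreated and 1 U, 0.754 to 0.801 between 1 and 10 U and 0.687 to 0.747 among the 10 U samples. The untreated samples among themselves had r between 0.665 and 0.818, which overlapped their values with 1 U. The part of depth in the r among the untreated samples was not tested, so this overlap does not show that the profiles are alike. The median r of the untreated samples was 0.817 with 0.01 U and 0.719 with 1 U. On the L strand r was 0.634 to 0.729 among the untreated samples, 0.658 to 0.717 between untreated and 1 U and 0.764 to 0.782 among the 1 U samples. These values share the depth of the libraries, which was lowest in untreated replicate 1 and after 10 U.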

How the data were processed

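The authors trimmed the tailed reads, aligned them with BWA-MEM 0.7.12 to the hg19 mitochondrial genome alone and deposited the count of 3′-OH termini per position and strand. The plus strand of the files was taken as the H strand. Removal of PCR duplicates is not given in the sources used here. The nuclear files were not used. A reference of the files' mitochondrial build was not used here, so no sequence is shown, and gene positions come from a slightly shorter mitochondrial reference and can be off by a few bases. Reads that span the ends of the linear reference can be lost, which lowers H-strand counts before 16571 and L-strand counts after 1.

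Samples were grouped by their deposited titles. The sources call the replicates biological without naming separate cultures, so p-values measure the spread between these samples. Ratios and factors are geometric means within replicate numbers. The spread over the 5 amounts was tested two-sided with exact permutation tests on log values within replicate numbers (14400 arrangements), with Benjamini-Hochberg adjustment over 8 tests, or over 10 with the 2 added later. The block follows the pairing in the study's methods. A comparison of 3 pairs cannot give an exact p below 0.25. Bins (50 bp, at least 50 termini in all, met by 666 of 666) were tested with edgeR 4.0.16 (quasi-likelihood, replicate block, termini outside the NCR as library size, 8 residual degrees of freedom) in R 4.3.3. Named positions were, per strand, the 3 with the highest mean share without P1 and the 3 at 1 U. Correlations used log2 of the percent plus 0.01. The tests were tested on simulated data.

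Alternatives were DESeq2 1.42.0, TMM, other library sizes and bin widths, unique sites, thinning (20 draws), narrower limits, omission of bases beside the reference ends, of strong or rare positions and of each replicate, and no block. The intervals cover counting error only. The members, measures and tests were chosen with earlier results of these data known.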

Additional observations from a re-analysis of the deposited data

How the results depend on the processing

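Of 102 recomputed region values 93 kept their direction and their side of the threshold of 0.05. Counted as unique sites, the ratio of 1 U to untreated reversed for the body's H/L ratio over that outside the NCR (0.755). It also reversed for the H-strand density over the origin segment (0.888). At 1 U unique sites were near their ceiling on the H strand, and the part of this in the reversals was not tested. With each replicate number left out in turn, the ratio of 1 U to untreated went from 1.16 to 1.25 for the H/L ratio of unique sites, from 1.03 to 1.78 for the H/L ratio over that outside the NCR and from 2.05 to 2.39 for the H-strand density over the origin segment, and that of 10 U for the L-strand density went from 3.59 to 4.20. The exact permutation p then reached 0.133, 0.075, 0.05 and 0.125, with 0.00833 as the smallest possible. For the H-strand density and the H/L ratio of all termini it stayed at 0.00833. With all mitochondrial termini as the denominator the H-strand ratio at 1 U was 10.0 and the L-strand ratio at 10 U 8.76.

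For the bins 195 of 220 percentages of called body bins stayed within 1.5 times. The body held 12 bins per strand at 50 bp, 6 at 100 bp and 23 at 25 bp. At 0.1 U TMM factors gave 8.33% of L-strand bins higher and 0% lower, DESeq2 0% lower, 100 bp bins 66.7% lower, 25 bp bins 26.1% lower and unique sites 0% lower on the L and 0% higher on the H strand, against 41.7% lower on the L and 100% higher on the H strand. At 1 U the L-strand bins were 33.3% higher and 8.33% lower with TMM factors, 58.3% higher and 0% lower with all mitochondrial termini, 50.0% higher and 0% lower with DESeq2, 16.7% higher and 66.7% lower with 100 bp bins, 13% higher with 25 bp bins and 0% either way with unique sites, which gave 16.7% higher on the H strand. Of 10 U against untreated, 25 bp bins gave 4.35% lower on the H strand, and of 10 U against 1 U, unique sites gave 41.7% higher and 0% lower there. With a replicate left out, the L strand had 0 to 8.33% higher at 0.1 U and 8.33 to 25% higher and 25 to 50.0% lower at 1 U. These percentages cover the body's bins alone, without the genome's shares at the same settings, and the cause of their differences was not tested.

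Without the replicate block no call over the region measures was lost, and the percentages of called bins stayed within 1.5 times (H-strand bins higher at 10 U, 83.3% against 91.7%). Same-numbered samples did not deviate together throughout: the correlation of their deviations from the group means over the bins went from -0.204 to 0.598 with a median of 0.0643, and 12 of 30 pairs were over 0.1. Depth was lowest at 10 U, where a 10 bp step beside the body held 2 to 5 termini.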

Other observations

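The junction of the linear reference runs through the body. The last 50 H-strand positions before it held a relative density of 2.45 ± 0.377 at 1 U and the 50 before those 8.58 ± 1.23, and the first 50 L-strand positions after it held 0.642 ± 0.0998 and the next 50 0.824 ± 0.0635 (SD, n = 3 each). The H-strand positions just after the junction were low as well, with 2.04 ± 0.248 in the first 50 and 6.17 ± 1.14 in the next 50. The part that reads lost across the junction have in these levels was not tested. Without 100 bases on each side of it, every test over the 5 amounts kept its direction and its side of the threshold.

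Replicate 3 had the highest H-strand relative density of the body at every amount, from 1.80 without P1 and 3.04 at 0.01 U to 10.4 at 1 U, and it also had the highest H/L ratio outside the NCR at every amount (0.961 without P1 and 5.68 at 1 U). At 0.01 U its H-strand density at the 7S DNA 3′ end was 776, against 334 and 443 in the other replicates.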
